A study of Homo sapiens with 9 samples.

Results

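The protocadherins form the largest branch of the cadherin superfamily of cell surface adhesion receptors, and they were described here over untreated cells, cells in primitive streak differentiation medium (PS medium) and cells in PS medium with doxycycline. Members were taken as every probe set of the deposited table that carried a single gene symbol in the array annotation and whose symbol began with PCDH. This gave 43 probe sets for 42 genes among 19460 probe sets with 1 symbol: 13 in the PCDHA cluster for 12 genes, 18 in the PCDHB cluster, 1 in the PCDHG cluster (PCDHGB4) and 11 for non-clustered genes. A further 3 probe sets listed several symbols that included protocadherins. One of them, for the whole PCDHA cluster, is described apart below, and the other 2 were not used.

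The cells were a derivative of H9, an established human embryonic stem cell line, that carries a doxycycline-inducible transgene for TCF7L1. This protein binds DNA as one of the TCF/LEF factors and is best known for repressing genes that Wnt signals activate. Total RNA was taken from 3 groups of 3 arrays: untreated cells in the pluripotency medium mTeSR1, cells after 48 h of PS medium, and cells after 48 h of PS medium that also had 1 ug/ml doxycycline for 48 h. Nothing in the labels tells whether arrays of a group are separate cultures. The p-values therefore rest on the spread between arrays, which may be technical. All 3 groups carry the transgene, no group had doxycycline in mTeSR1 or without the transgene, and the promoter behind the transgene is not given in the sources used here. The study set out to find putative targets of TCF7L1 by over-expressing it.

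Protocadherins are single-pass membrane proteins whose extracellular cadherin repeats bind the same protein on a neighbouring cell. The clustered genes lie side by side on a single chromosome. In the PCDHA and PCDHG clusters each variable exon has its own promoter and encodes the extracellular part, the membrane span and the start of the tail, and is spliced to constant exons that all genes of the cluster share. PCDHB genes are single coding exons with no shared constant region. Neurons are known to switch on small sets of the clustered genes at random, with the boundary factor CTCF and cohesin linking a chosen promoter to a distant enhancer. The non-clustered genes stand alone, and several act in cell movement in the early embryo or bind the WAVE complex, which drives actin branching.

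The promoters of the PCDHB genes are shown for an element that nearly all of them held, whether they rose, fell or passed no test. Its part in the differences was not tested. The nonamer GGTGGCGCT, chosen after these same windows were looked at, was searched on both strands and found in 13 of 14 PCDHB genes with a RefSeq promoter window (250 bases before to 50 after the start, assembly GRCh38.p14). It was in 0.501% of all 35116 such windows. It ended from 7 bases past the start to 75 bases before it, with a median of 57 bases before, and PCDHB1 was the gene without it. In the lines below the capitals mark that nonamer, all on the plus strand. PCDHB16 and PCDHB9 are the neighbours that rose in PS medium, PCDHB10 and PCDHB12 were lower with doxycycline, PCDHB13 and PCDHB14 fell in PS medium, and PCDHB2 is the brightest PCDHB probe set and passed no test.
PCDHB16, chr5:141182295-141182355: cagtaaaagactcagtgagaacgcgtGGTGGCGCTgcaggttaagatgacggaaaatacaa
PCDHB9, chr5:141187059-141187119: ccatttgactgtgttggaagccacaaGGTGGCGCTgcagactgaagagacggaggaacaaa
PCDHB10, chr5:141192284-141192344: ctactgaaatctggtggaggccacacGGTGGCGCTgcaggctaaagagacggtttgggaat
PCDHB12, chr5:141208628-141208688: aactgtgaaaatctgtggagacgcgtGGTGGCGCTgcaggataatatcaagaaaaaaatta
PCDHB13, chr5:141213850-141213910: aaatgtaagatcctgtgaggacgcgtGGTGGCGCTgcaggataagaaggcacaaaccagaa
PCDHB14, chr5:141223248-141223308: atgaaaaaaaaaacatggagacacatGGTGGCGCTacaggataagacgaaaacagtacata
PCDHB2, chr5:141094529-141094589: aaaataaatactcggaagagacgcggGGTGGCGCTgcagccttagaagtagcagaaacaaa

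A related nonamer, GATGTCGCT, likewise chosen from these windows, was in 9 of 13 PCDHA genes with a window and in 0.105% of all windows, 34 to 77 bases before the start. The lines below give it in capitals for PCDHA12 and PCDHA8, whose probe sets fell in PS medium, and for PCDHA1, whose probe set was not called in PS medium. An octamer of the PCDHG genes, GCCGCTGT, was in 11 of 20 PCDHG genes and 1.63% of all windows, and is shown for PCDHGB4, the PCDHG member measured here. The 3 elements share the letters CGCT, which alone were in 70% of all windows.
PCDHA12, chr5:140875229-140875289, plus strand: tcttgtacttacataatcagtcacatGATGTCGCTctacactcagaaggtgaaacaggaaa
PCDHA8, chr5:140841115-140841175, plus strand: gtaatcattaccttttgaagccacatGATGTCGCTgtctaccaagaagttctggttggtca
PCDHA1, chr5:140786071-140786131, plus strand: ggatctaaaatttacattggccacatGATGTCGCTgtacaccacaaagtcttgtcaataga
PCDHGB4, chr5:141387605-141387664, plus strand: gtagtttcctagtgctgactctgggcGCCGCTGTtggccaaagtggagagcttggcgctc

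Letters that TCF/LEF factors are known to bind were also searched on both strands. CTTTGAA was in the windows of PCDH7, PCDHA8, PCDHA10 and PCDHB14 and in 4.43% of all windows, and CTTTGAT was in that of PCDH15 and in 2.62% of all windows. Of the 42 member genes, 34 had a promoter entry, and PCDH10 and PCDH20 were among those without one. A match says only that these letters stand in the window.

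TCF7L1, the induced gene, read 1275 to 1611 in PS medium and 3572 to 3878 without it. With doxycycline it read 13100.2, 12433 and 2699, so doxycycline replicate 3 had much less induction than the others and read below every untreated array. Some of the results with doxycycline are also given without that array. Correlations between arrays of a group were 0.989 to 0.997 over probe sets. All values below are intensities as deposited, and differences are on the log2(value + 16) scale, with 3 arrays per group, standard errors (SE) and adjusted p-values from limma across all 19460 probe sets. As a guide to what a gene that is off reads here, 381 olfactory receptor probe sets had a median of 39.6 and an upper quartile of 65.9. Of the 43 protocadherin probe sets, 6 had a mean below that quartile over all arrays: PCDH9, PCDH15, PCDHB1, PCDHB6, PCDHB8 and PCDHB17P.

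In PS medium against untreated cells, 7 protocadherin probe sets were higher and 13 lower, and 23 did not pass the test. PCDH10, PCDH7, PCDH19, PCDH17 and PCDH20 rose among the non-clustered genes, and PCDHB16 and PCDHB9 among the clustered ones. PCDH18 and PCDH1 fell by over 2-fold, and 7 PCDHA and 4 PCDHB probe sets fell by less. The 20 calls of 43 compare with 29.4% of all probe sets called in that comparison (14.1% higher and 15.3% lower), and 4 of 43 passed with at least a 2-fold change, against 5.54%. The median log2 difference of the members was -0.18, against -0.00499 over all probe sets. The 13 falls became 8 after centring arrays on their medians and 7 when p-values were adjusted over every probe set of the table. They became 5 without untreated replicate 1 or PS replicate 1, 6 without untreated replicate 2, 7 without PS replicate 3, and 8 without untreated replicate 3 or PS replicate 2.

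With doxycycline against PS medium alone, 3 protocadherin probe sets were higher, PCDH9, PCDH18 and PCDH17, and 5 were lower, PCDH10, PCDHB16, PCDHB12, PCDHB9 and PCDHB10. These 8 of 43 compare with 16.8% of all probe sets called there (8.61% higher and 8.20% lower), and 2 of 43 passed with at least a 2-fold change, against 3.20%. The median log2 difference of the members was 0.02 against 0.00129 over all probe sets. All 8 passed also without doxycycline replicate 3, the array with the least TCF7L1. The replicate number as a block in limma added PCDHB4 (log2 0.38, limma adjusted p = 0.0463) and PCDHA12 (0.27, limma adjusted p = 0.0155) as higher, and without doxycycline replicate 2 the count higher was 5. The 5 falls became 2 without doxycycline replicate 2, and 3 without PS replicate 1 or 3, without doxycycline replicate 1, in a fit of the 2 groups alone or with every probe set of the table.

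With doxycycline against untreated cells, 6 probe sets were higher, all non-clustered, and 9 were lower. The background there was 29.8% (15.1% higher and 14.7% lower). The doxycycline arrays lay wholly below the untreated arrays for 15 of the 43, against 21.8% of all probe sets. With the replicate number as a block, 16 were lower. The count lower was 5 without untreated replicate 2 or doxycycline replicate 2, and 6 without doxycycline replicate 3 or untreated replicate 1. This comparison shares its untreated arrays with the PS medium comparison and its doxycycline arrays with the doxycycline comparison, so the 3 sets of values are not independent. Of the 43 probe sets, 25 passed in at least 1 comparison, and 3 passed in all 3: PCDH10, PCDH17 and PCDH18. Over all probe sets, 41.9% passed in at least 1 comparison and 5.2% in all 3.

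**Figure D1:**
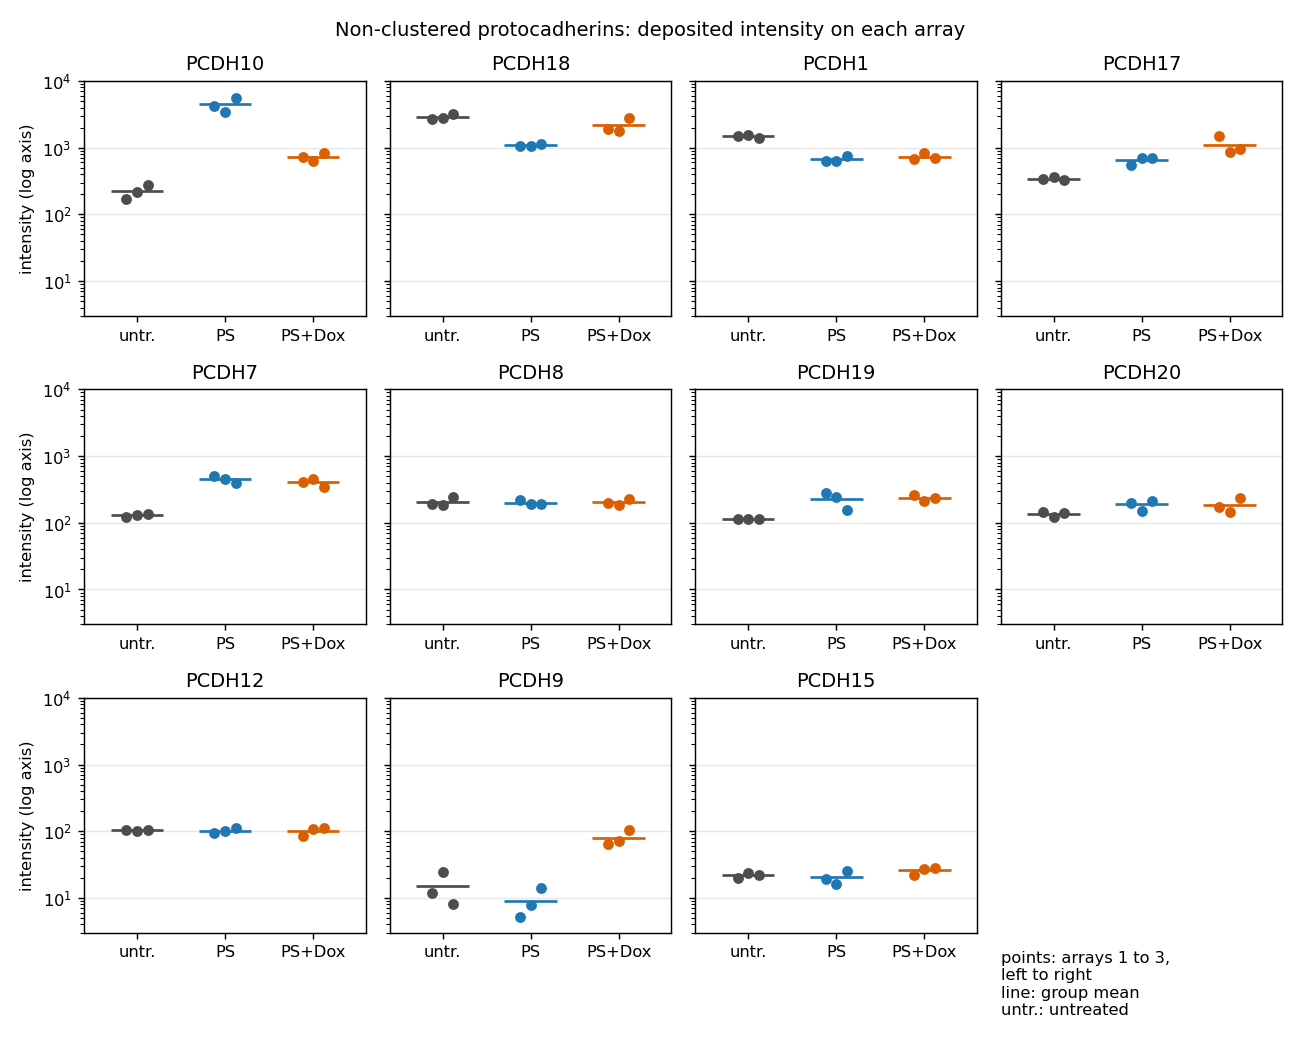
Deposited intensity (log axis) of the 11 non-clustered protocadherins on each of the 9 arrays, with a line at each group's mean. PCDH10 went from 169 to 280 in untreated cells to 3479.9 to 5587 in PS medium, and PCDH9 read 63.9 to 105 with doxycycline and at most 24.8 elsewhere.

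PCDH10, which binds the WAVE complex through its tail and guides axons in the brain, had the largest change of the family. It read 169, 214 and 280 when untreated, 4286, 3479.9 and 5587 in PS medium, and 715, 638 and 847 with doxycycline. No 2 groups overlapped, and the doxycycline arrays lay between the others. In PS medium it was 18.9-fold higher than in untreated cells (log2 4.24 ± 0.20, SE, n = 3 per group, limma adjusted p = 1.45e-07). With doxycycline it was 5.9-fold lower than in PS medium alone (-2.56 ± 0.20, limma adjusted p = 1.57e-05), and still 3.21-fold higher than in untreated cells (1.68 ± 0.20, limma adjusted p = 0.00012). Without doxycycline replicate 3 the difference from PS medium was -2.68. The 8 primitive streak markers summed to 1760 to 1811 when untreated, 73465 to 81778 in PS medium and 14478 to 23257 with doxycycline. None was below the olfactory receptor quartile. The sum moved as PCDH10 did, and EOMES alone read 50981 to 57102 in PS medium. All 8 rose in PS medium, against 14.1% of all probe sets. With doxycycline over PS medium 7 were lower, against 8.20%, and NODAL did not pass (log2 0.18, limma adjusted p = 0.788). Against untreated cells 5 were higher with doxycycline, against 15.1%, and GSC, EVX1 and MESP1 did not pass. The 6 definitive endoderm markers (1254 to 1317, 25050.4 to 34485 and 9849 to 13304) and the 7 measured mesoderm markers (2992 to 3262, 10039.9 to 12707 and 4826 to 5430) had summed intensities in the same order of groups, and 1 endoderm and 2 mesoderm markers were below the olfactory receptor quartile in untreated cells. Of these, 6 endoderm and 5 mesoderm markers rose in PS medium, and 5 and 4 were lower with doxycycline than in PS medium alone. Against untreated cells 3 endoderm and 4 mesoderm markers were higher with doxycycline, and the mesoderm marker KDR was lower (log2 -0.59, limma adjusted p = 0.00405). The sums leaned on single genes: KDR read 2288 to 2588 when untreated, and the endoderm marker CER1 read 14989 to 15315 in PS medium. The part of these 3 lists in the result was not tested. In RNA from whole cultures, fewer cells of a type and less RNA per cell cannot be told apart.

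PCDH9, a receptor of developing neural circuits, was near the level of genes that are off except with doxycycline. It read 11.8, 24.8 and 8.1 when untreated, 5.1, 7.7 and 14.2 in PS medium, and 63.9, 71.9 and 105 with doxycycline. The doxycycline arrays lay above all others, and doxycycline replicate 3, with the least TCF7L1, was the highest. The log2 difference between doxycycline and PS medium was 1.95 ± 0.22 (SE, n = 3 per group, limma adjusted p = 0.00015), and 1.79 without replicate 3. Because PCDH9 was so dim, the size rested on the log offset: it was 3.11 with an offset of 1 and 0.98 with an offset of 64, passing with each. Its values with doxycycline ran from just under the upper quartile of the olfactory receptor sets to above it, and its means in the other groups stood below their lower quartile of 26.8.

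PCDH18, which can bind the adaptor DAB1 through its tail, fell in PS medium and was higher with doxycycline. It read 2702, 2829 and 3176 when untreated, 1053, 1051 and 1143 in PS medium, and 1888, 1781 and 2835 with doxycycline. The PS arrays lay below all others, and doxycycline replicate 3 reached the range of untreated cells. The fall in PS medium was 2.68-fold (log2 -1.42 ± 0.15, SE, n = 3 per group, limma adjusted p = 3.92e-05), and the rise with doxycycline over PS medium was 1.96-fold (0.97 ± 0.15, limma adjusted p = 0.00104), or 0.76 on the log2 scale without doxycycline replicate 3. The remaining difference between doxycycline and untreated cells (-0.45 ± 0.15, limma adjusted p = 0.0417) was lost in a fit of the 2 groups alone, with every probe set of the table and without any of the 3 untreated arrays, PS replicate 1, or doxycycline replicate 1 or 2.

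PCDH17, a presynaptic receptor that also binds the WAVE complex, rose at both steps. It read 342, 361 and 324 when untreated, 552, 707 and 704 in PS medium, and 1485, 864 and 965 with doxycycline. The 3 groups did not overlap, and doxycycline replicate 1 stood above the other two. PCDH17 was 1.86-fold higher in PS medium than in untreated cells (log2 0.90 ± 0.18, SE, n = 3 per group, limma adjusted p = 0.00282). It was 1.63-fold higher with doxycycline than in PS medium alone (0.71 ± 0.18, limma adjusted p = 0.0178). Without doxycycline replicate 1 the latter was 0.47 and passed (limma adjusted p = 0.0269), and the call was lost without PS replicate 1 or when only those groups were fitted. The 8 amnion and trophectoderm markers had a summed intensity of 2924 to 3269 when untreated, 14283 to 16584 in PS medium and 31722 to 34388 with doxycycline, where none was below the olfactory receptor quartile. Of these 8, 5 rose in PS medium, against 14.1% of all probe sets. KRT7 fell there (log2 -1.75, limma adjusted p = 0.00297), and CDX2 and VTCN1 did not pass. With doxycycline over PS medium 7 were higher, against 8.61%, and CDX2 did not pass. The sum of the markers rose at both steps, as PCDH17 did. It rose with doxycycline, as PCDH9 did, while PCDH9 did not pass in PS medium (log2 -0.27, limma adjusted p = 0.422). The part of these markers in the PCDH17 and PCDH9 results was not tested.

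PCDH7, a receptor found in brain and heart that can inhibit the phosphatase PP1, read 123, 131 and 134 when untreated, 507, 456 and 389.9 in PS medium, and 407, 461 and 347 with doxycycline. Every array in PS medium, with or without doxycycline, was above every untreated array. It was 3.27-fold higher in PS medium (log2 1.71 ± 0.12, SE, n = 3 per group, limma adjusted p = 2.77e-06) and differed by -0.16 ± 0.12 between doxycycline and PS medium (limma adjusted p = 0.465). PCDH19, an X-linked gene known for epilepsy in females, read 115, 113 and 115 when untreated, 284, 246 and 157 in PS medium, and 263, 212 and 234 with doxycycline. It was 1.89-fold higher in PS medium (0.92 ± 0.16, limma adjusted p = 0.00166) and differed by 0.07 ± 0.16 with doxycycline (limma adjusted p = 0.855).

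PCDH1, a receptor of airway epithelium, was the other non-clustered gene that fell. It read 1476, 1541 and 1404 when untreated, 630.1, 638 and 758 in PS medium, and 666, 827 and 693 with doxycycline. Both differentiated groups lay wholly below untreated cells and overlapped each other. The fall in PS medium was 2.20-fold (log2 -1.14 ± 0.09, SE, n = 3 per group, limma adjusted p = 6.03e-06), and the difference made by doxycycline was 0.10 ± 0.09 (limma adjusted p = 0.552).

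PCDH8, the human counterpart of the paraxial protocadherin that acts in mesoderm movement, read 191, 187 and 243 when untreated, 221, 193 and 190.1 in PS medium, and 196, 183 and 229 with doxycycline. Its 3 groups overlapped, and its difference was 0.00 ± 0.11 on the log2 scale in each comparison (limma adjusted p of 0.992, 0.997 and 0.985). PCDH20 read 146, 120.2 and 141 when untreated, 198, 151 and 215.6 in PS medium, and 175, 147 and 233 with doxycycline. Its rise in PS medium (0.46 ± 0.15, SE, n = 3 per group, limma adjusted p = 0.0373) was lost on values as deposited, with every probe set of the table, and without any of the 3 untreated arrays or PS replicate 1 or 3. Its rise with doxycycline over untreated cells (0.43, limma adjusted p = 0.0469) was lost under 10 of the 18 alternatives, and was 0.28 without doxycycline replicate 3. PCDH12, an endothelial and trophoblast receptor, read 84.9 to 112 over all arrays, and PCDH15, which forms tip links of hair cells in the inner ear, read 16.2 to 28.2, and neither passed in any comparison.

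**Figure D2:**
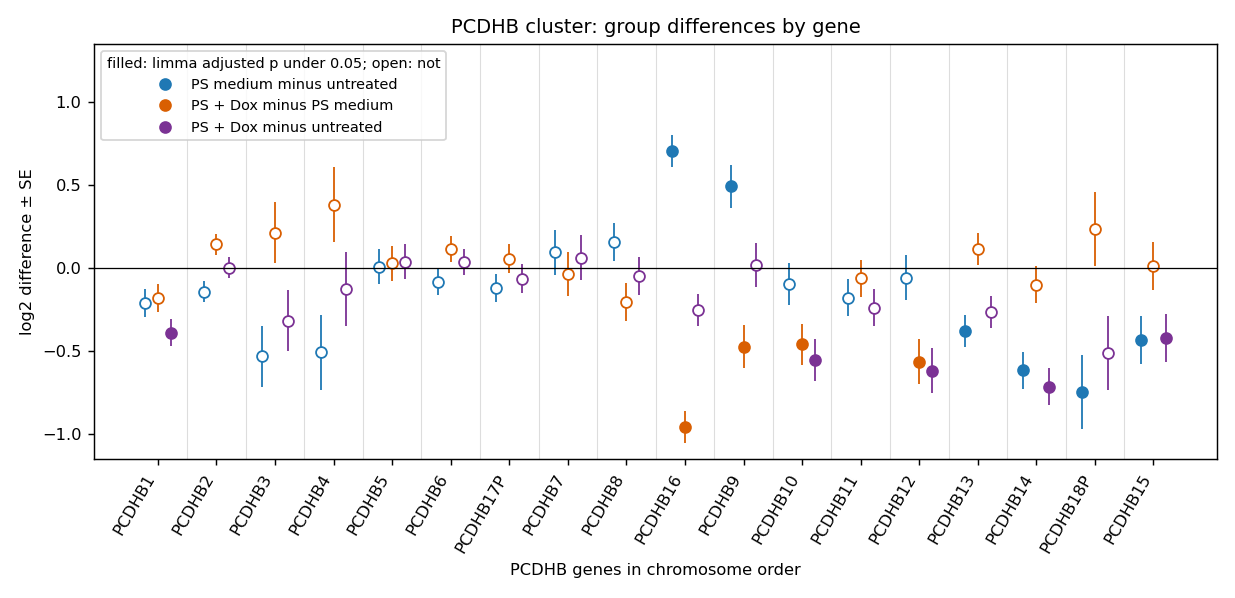
Log2 differences with SE (3 arrays per group) for the 18 PCDHB probe sets in chromosome order, in the 3 comparisons; filled points passed limma at an adjusted p under 0.05. PCDHB16 and its neighbour PCDHB9 rose in PS medium (0.71 and 0.49) and were lower with doxycycline than in PS medium alone (-0.96 and -0.47), and the falls in PS medium lay at PCDHB13 to PCDHB15.

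In the PCDHB cluster the calls lay in the run from PCDHB16 to the end of the cluster, apart from that of PCDHB1, and no adjacent genes were called in opposite directions in a comparison. Of 18 probe sets, 2 rose and 4 fell in PS medium, against 14.1% and 15.3% of all probe sets. With doxycycline 4 were lower than in PS medium, against a background of 8.20%, and 0 were higher by limma (1 at an unadjusted p under 0.05). The median log2 difference was -0.13 in PS medium and -0.01 with doxycycline over PS medium. The 4 falls in PS medium became 2 with every probe set of the table. They also became 2 without untreated replicate 3 or PS replicate 1 or 2. The filter on dim probe sets removed PCDHB13, PCDHB15 and PCDHB18P, kept the fall of PCDHB14 and added one of PCDHB3. The 2 rises became 1 without untreated replicate 1 or PS replicate 3. These genes are near-identical in long stretches, so signal from one gene on the probes of another cannot be told apart from its own.

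PCDHB16 had the largest difference of the cluster between doxycycline and PS medium. It read 364, 408 and 409 when untreated, 627, 598 and 748 in PS medium, and 339.7, 294 and 348 with doxycycline. The PS arrays stood above all others, and the doxycycline arrays stood below all untreated arrays. It was 1.63-fold higher in PS medium (log2 0.71 ± 0.10, SE, n = 3 per group, limma adjusted p = 0.000269) and 1.94-fold lower with doxycycline than in PS medium alone (-0.96 ± 0.10, limma adjusted p = 6.92e-05). Against untreated cells the doxycycline difference was -0.25 (limma adjusted p = 0.0745), and it passed with the replicate number as a block (adjusted p = 0.0316).

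PCDHB9, the next gene along the chromosome, read 203, 196 and 214 when untreated, 293, 236 and 344 in PS medium, and 202, 168 and 243 with doxycycline. It rose in PS medium (log2 0.49 ± 0.13, SE, n = 3 per group, limma adjusted p = 0.015) and was lower with doxycycline than in PS medium alone (-0.47 ± 0.13, limma adjusted p = 0.0292). As deposited, PS replicate 2 read below doxycycline replicate 3, and the groups were apart only after normalization. Leaving out untreated replicate 1 or PS replicate 3 ended the call in PS medium.

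PCDHB10 and PCDHB12 did not pass in PS medium and were lower with doxycycline. PCDHB10 read 173, 174 and 176 when untreated, 158, 129 and 194 in PS medium, and 114, 92.1 and 125 with doxycycline. It was 1.37-fold lower with doxycycline than in PS medium (log2 -0.46 ± 0.12, SE, n = 3 per group, limma adjusted p = 0.0282). PCDHB12 read 122, 154 and 141 when untreated, 119, 116 and 156 in PS medium, and 88.2, 66.0 and 91.7 with doxycycline, which was 1.48-fold lower than in PS medium (-0.56 ± 0.14, limma adjusted p = 0.0153). In each gene all 3 doxycycline arrays lay below all PS and all untreated arrays. The calls of PCDHB9 and PCDHB10 against PS medium were lost in a fit of the 2 groups alone, with every probe set of the table, and without PS replicate 1 or 3 or doxycycline replicate 1 or 2, and that of PCDHB12 without doxycycline replicate 2.

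The last genes of the cluster fell in PS medium. PCDHB14 read 195, 211 and 226 when untreated, 126, 116 and 149 in PS medium, and 129, 98.1 and 131 with doxycycline. All differentiated arrays were below all untreated ones, with a 1.53-fold fall in PS medium (log2 -0.61 ± 0.11, SE, n = 3 per group, limma adjusted p = 0.00184) and a difference of -0.10 with doxycycline (limma adjusted p = 0.631). The transcribed pseudogene PCDHB18P read 122, 77.1 and 103 when untreated, 62.1, 36.7 and 57.6 in PS medium, and 77.9, 36.8 and 82.8 with doxycycline, and its fall of 0.74 on the log2 scale in PS medium (SE 0.22, limma adjusted p = 0.0273) was lost with every probe set of the table and without untreated replicate 1 or 3 or PS replicate 2. PCDHB13 (-0.38, limma adjusted p = 0.0137) and PCDHB15 (-0.43, limma adjusted p = 0.0433) also fell. The call of PCDHB13 was lost without PS replicate 1, and that of PCDHB15 under 9 of the 17 alternatives that kept it.

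**Figure D3:**
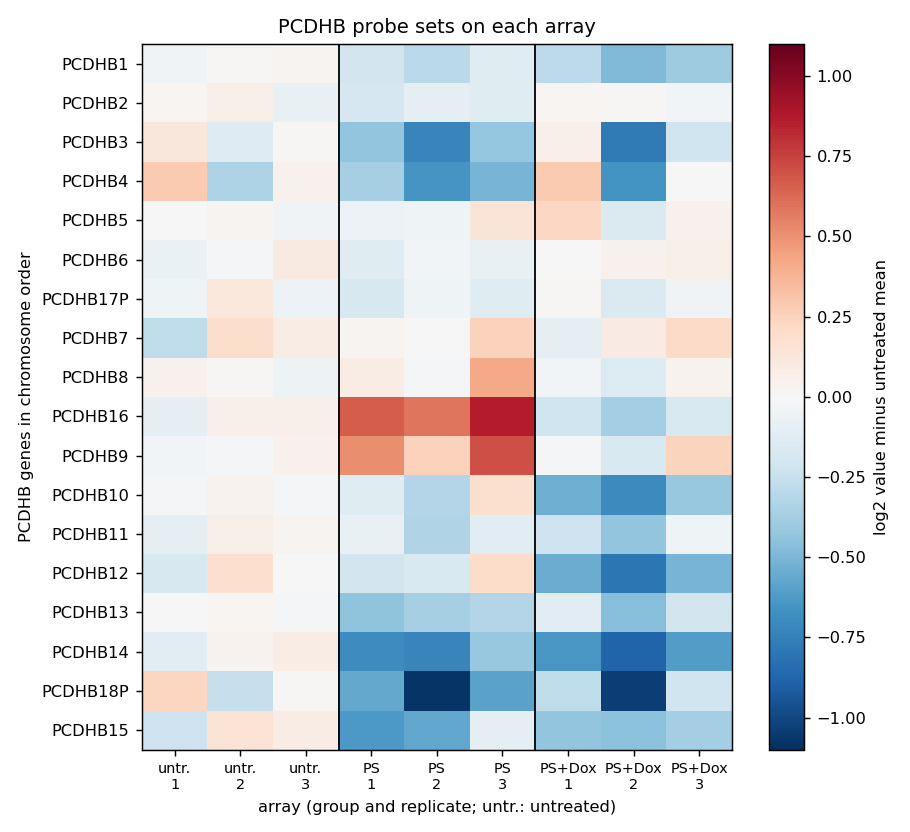
Log2 value of each PCDHB probe set on each array, minus its mean over the untreated arrays (red higher, blue lower), in chromosome order from top to bottom. PCDHB16 and PCDHB9 are red on the PS arrays, and the lowest values of the plot are those of PCDHB18P on replicate 2 of PS medium (-1.08) and of PS medium with doxycycline (-1.03).

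In PCDHB3, PCDHB4 and PCDHB18P, replicate 2 read lowest in each of the 3 groups. PCDHB3 read 166 on PS replicate 2 and 154 on doxycycline replicate 2, against 214 and 214 and 310.3 and 252 on the other arrays of those groups. PCDHB4 read 162, 69.5 and 129 on the doxycycline arrays. The differences of PCDHB3 and PCDHB4 in PS medium were -0.53 (limma adjusted p = 0.0516) and -0.51 (limma adjusted p = 0.121). Both passed with the replicate number as a block (limma adjusted p = 0.00501 and 0.00869), a pairing not taken for that comparison. Over the 9 arrays, deviations from the group means correlated between PCDHB probe sets with a median r of 0.50 over 153 pairs. This is a description of arrays that share a hybridisation each.

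PCDHB2 read 1031 to 1169 when untreated, 973 to 1054 in PS medium and 1096 to 1152 with doxycycline, with log2 differences of -0.14, 0.14 and 0.00, none of which passed. PCDHB1, near the level of genes that are off at 24.9 to 47.0, was lower with doxycycline than in untreated cells (-0.39 ± 0.08, SE, n = 3 per group, limma adjusted p = 0.00501). The other 6 PCDHB probe sets, PCDHB5, PCDHB6, PCDHB7, PCDHB8, PCDHB11 and PCDHB17P, had differences from -0.24 to 0.16 and passed in no comparison.

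**Figure D4:**
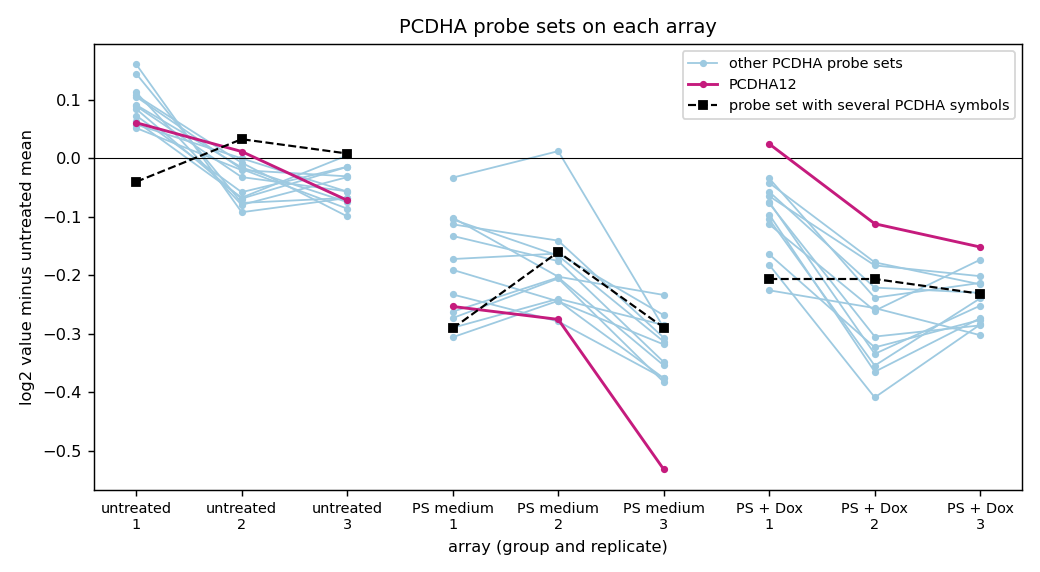
Log2 value of the 13 PCDHA probe sets (1 line each, PCDHA12 in magenta) and of the probe set that lists several PCDHA symbols (dashed), minus the mean over untreated arrays, on each of the 9 arrays; lines join the arrays of a group and carry no order. Each PCDHA set had a mean below 0 in both differentiated groups, with 12 of 13 not overlapping untreated cells in PS medium.

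The PCDHA probe sets moved together and by little. All 13 had a negative difference in PS medium, from -0.35 to -0.10 with a median of -0.25, and 7 passed the test as lower (53.8%, against 15.3% of all probe sets). In 12 of 13 the PS arrays lay wholly below the untreated arrays, against 22.2% of all probe sets. With doxycycline against PS medium 0 of 13 passed by limma (1 higher and 0 lower at an unadjusted p under 0.05), with a median of 0.03 and a range of -0.16 to 0.27. Against untreated cells 2 were lower with doxycycline, PCDHA11 and PCDHA6, against 14.7% of all probe sets, and the median was -0.22. That count was 0 without doxycycline replicate 2 or 3 or untreated replicate 1 or 2, 1 with median centring, 4 without doxycycline replicate 1, and 7 with the replicate number as a block, which added PCDHA1, PCDHA3, PCDHA7, PCDHA10 and PCDHA13.

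These 13 readings are not 13 measurements. The transcripts of the cluster share their constant exons, the annotation does not say which exons each probe set covers, and signal from shared exons cannot be assigned to a gene. The 2 probe sets of PCDHA2 kept a ratio of 1.23 to 1.27 on all 9 arrays. The brighter read 338, 297 and 312 when untreated, 291, 272 and 249.8 in PS medium, and 310.1, 256 and 269.8 with doxycycline, and the dimmer read 269.6, 238 and 253, then 232, 219.6 and 199, then 245, 203 and 213. Deviations from the group means correlated with a median r of 0.84 over 78 pairs of PCDHA sets, against -0.03 over 55 pairs of non-clustered genes. All 13 sets were highest on replicate 1 within untreated cells, and all 13 were highest on replicate 1 within the doxycycline group.

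A further probe set lists 15 PCDHA symbols, and whether it is independent of the single-symbol sets was not tested. It read 218, 222 and 226 when untreated, 179, 188 and 174 in PS medium, and 191, 178 and 186 with doxycycline. Within untreated cells it was lowest on replicate 1, where every single-symbol PCDHA set was highest. It differed by -0.25 ± 0.08 in PS medium (SE, n = 3 per group, limma adjusted p = 0.0483 over all 33297 probe sets), close in size to the median of the single-symbol sets, and by 0.03 with doxycycline over PS medium (limma adjusted p = 0.885).

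PCDHA12 had the most negative difference of the cluster in PS medium and the most positive one between doxycycline and PS medium. It read 555, 538 and 507 when untreated, 447, 440.5 and 374 in PS medium, and 555, 503 and 481 with doxycycline. Its fall in PS medium was 1.28-fold (log2 -0.35 ± 0.09, SE, n = 3 per group, limma adjusted p = 0.0149), and the doxycycline arrays lay above the PS arrays (0.27 ± 0.09, limma adjusted p = 0.0719, and 0.0155 with the replicate number as a block). The other falls in PS medium were PCDHA11 (-0.31), PCDHA7 (-0.30), PCDHA5 (-0.29), PCDHA3 (-0.27), PCDHA8 (-0.27) and PCDHA4 (-0.25). Median centring of the arrays ended the calls of PCDHA3, PCDHA4, PCDHA5, PCDHA7 and PCDHA8, and leaving out untreated replicate 1 ended all 7. Without untreated replicate 2, PS replicate 1 or PS replicate 3 PCDHA12 was the 1 call left, 4 were left without untreated replicate 3 or PS replicate 2, and 3 with every probe set of the table. PCDHGB4, which lies in the PCDHG cluster, read 376, 415 and 397 when untreated, 367, 342 and 399.6 in PS medium, and 369.8, 368 and 344 with doxycycline, and passed in no comparison.

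Genes that act on or with the protocadherins were read from 3 lists, each gene by its brightest probe set. Of 21 measured regulators of the clusters, 2 rose and 3 fell in PS medium, with a median of 0.03, near the 29.4% called over all probe sets, and 4 rose without PS replicate 3. RAD21, a cohesin subunit, rose (log2 0.24, limma adjusted p = 0.00445), as did REST, a repressor of neuronal genes (0.44), and DNMT3B, a DNA methyltransferase, fell (-0.66 ± 0.10, limma adjusted p = 0.000451), as did the histone methyltransferases EHMT2 (-0.42) and EHMT1 (-0.25). With doxycycline against PS medium, 1 was higher, EHMT2 (0.25), and 1 lower, RAD21 (-0.18), with a median of 0.04. Over all probe sets 8.61% were higher and 8.20% lower. No regulator was called as higher with median centring, in a fit of those groups alone, or without PS replicate 1 or doxycycline replicate 1 or 2. The count lower was 0 under 10 of the 18 alternatives.

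Of 20 measured cleavage enzymes and binding partners, 5 rose and 4 fell in PS medium, against 14.1% and 15.3% of all probe sets. The count that rose was 3 with every probe set of the table and without untreated replicate 1 or 3, PS replicate 1 or doxycycline replicate 1. CYFIP2, a subunit of the WAVE complex, fell (log2 -1.08 ± 0.08, limma adjusted p = 3.05e-06) while its paralog CYFIP1 rose (0.35), and ADAM10, the sheddase of several protocadherins, rose (0.26). With doxycycline against PS medium 3 were higher and 3 lower, against 8.61% and 8.20% of all probe sets. The count higher was 1 with median centring and without PS replicate 1 or doxycycline replicate 1 or 3. CYFIP2 was higher (0.81), and WASF3, the WAVE3 subunit, was lower (-0.71). FZD7, the Wnt receptor that binds paraxial protocadherin, was lower (-1.68 ± 0.12, limma adjusted p = 8.04e-06). The third list held 19 genes, large cadherin-superfamily receptors and FJX1, which is not a cadherin. Of these, 3 rose and 6 fell in PS medium (median -0.26), against 14.1% and 15.3% of all probe sets. With doxycycline against PS medium 5 were higher and 1 lower (median 0.17), against 8.61% and 8.20%. FAT1, a giant cadherin of cell polarity, fell in PS medium (-0.61) and was higher with doxycycline (0.66), and CDH23, the tip-link partner of PCDH15, rose (0.72) and was lower with doxycycline (-1.05 ± 0.10, limma adjusted p = 5.49e-05).

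Protocadherins are best known from neurons, so markers of neuroectoderm and neurons were read too. Of 10 measured, 1 rose and 2 fell in PS medium, against 14.1% and 15.3% of all probe sets. Their summed intensity was 4196 to 4983 when untreated, 6751 to 8899 in PS medium and 3351 to 3993 with doxycycline. OTX2 alone read 2328 to 2782, 5116 to 6478 and 1697 to 2057 in those groups, so this sum mostly followed that gene. OTX2, a gene of anterior brain and anterior endoderm, rose in PS medium (log2 1.08) and was lower with doxycycline (-1.55), and MAP2, a neuronal microtubule protein, fell (-2.24) and was higher with doxycycline (1.97). Their part in the protocadherin results was not tested. ELAVL4 and ZIC1 stayed below the olfactory receptor quartile. The fibroblast markers summed to 5863 to 6052 in untreated cells and to 2995 to 3677 in the other groups. THY1 alone read 4130 to 4358 in untreated cells, so the sum mostly followed that gene. Of the 8, COL1A2 rose in PS medium, THY1 and COL1A1 fell and 5 did not pass, and 4 were below the olfactory receptor quartile in untreated cells. The endothelium and blood markers summed to 1140.3 to 1642 over all arrays. The 8 pluripotency markers summed to 31349 to 32661 when untreated, 17429 to 20314 in PS medium and 25480 to 26363 with doxycycline. All 8 fell in PS medium, against 15.3% of all probe sets. With doxycycline over PS medium 5 were higher, against 8.61%. LIN28A, ZFP42 and USP44 did not pass there (USP44 log2 0.15, limma adjusted p = 0.528). The sum moved as PCDH18 did, and the part of these markers in the PCDH18 result was not tested.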

How the data were processed

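Gene expression was measured on 9 Affymetrix arrays. The deposited values are linear intensity per probe set, summarised with PLIER 2.0 in Affymetrix Expression Console 1.1.1 per the submitters' processing notes. The sources used here do not give the background correction or normalization. The table holds 33297 probe sets: 19460 with 1 gene symbol in the platform annotation, 1754 with several and 12083 with none listed. Depth has no meaning for arrays, and 3 arrays per group limit the precision.

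Values were turned into log2(value + 16), quantile-normalized over all probe sets and fitted with limma 3.58.1 (trend) in R 4.3.3 on the 19460 single-symbol probe sets and all 9 arrays, with 6 residual degrees of freedom. P-values were Benjamini-Hochberg adjusted over those sets, with a threshold of 0.05. Fold changes of dim genes are understated on this scale. On simulated data for doxycycline against PS medium over 19460 probe sets, 93 of 100 changes of 2-fold and 99 of 100 of 4-fold were recovered. There were 14 false calls. Recovery of changes under 2-fold, or in dim probe sets apart, was not tested. Any member could be named; values on every array were given for a fixed set of non-clustered genes, for the 8 largest called and non-overlapping differences in each comparison, and for genes with more than 1 probe set. The members and lists were chosen with earlier results of these data known.

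Replicate numbers come from the labels. Deviations of same-numbered arrays correlated at 0.241 to 0.424 for doxycycline against PS medium and 0.255 to 0.311 for doxycycline against untreated cells, above the limit of 0.1, so those numbers were taken to pair the arrays on the data alone. For PS medium against untreated cells they were 0.0926 to 0.397, below the limit for 1 pair, and different-numbered arrays there correlated at 0.0439 or less. The limit was applied to each comparison apart, although numbers that pair the doxycycline arrays with both other groups would pair those groups too. The main fit had no replicate term. Its calls, SE and p-values therefore do not use the pairing, and values from the replicate block are named as such. Alternatives were other offsets, other normalizations, a filter on dim probe sets, other sets of features, the 2 groups alone, the replicate block and leaving out each array. Promoter windows are from RefSeq (GRCh38.p14). The 2 probe sets that list PCDH11X with a Y-linked gene were not used.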

Additional observations from a re-analysis of the deposited data

How the results depend on the processing

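No difference changed sign among the calls. Of 43 called differences of single protocadherin probe sets, 18 passed under all 18 alternatives, 4 passed under the 17 that kept their probe set (the filter on dim probe sets removed it), and 21 were lost under at least 1. Of 86 that were not called, 16 passed under at least 1. In PS medium against untreated cells the count lower was 13, and 8 with median centring, 7 with every probe set of the table and 5 to 14 when 1 array was left out. There 1 same-number correlation was below the limit of 0.1, so the arrays were not taken as paired, which does not show that they are unpaired. The replicate block gave 18 lower in that comparison, with PCDHB3, PCDHB4, PCDHA6, PCDHA10 and PCDHA13 added (limma adjusted p = 0.00501 for PCDHB3 and 0.00869 for PCDHB4). With doxycycline against PS medium the count higher was 3, and 5 with the replicate block and 2 to 5 when 1 array was left out. The count lower was 5, and 3 in a fit of those groups alone, 3 with every probe set of the table and 2 to 5 when 1 array was left out. With doxycycline against untreated cells the count lower was 9, and 16 with the replicate block and 5 to 11 when 1 array was left out. The counts higher ran from 5 to 7 in PS medium and from 5 to 6 with doxycycline against untreated cells over all alternatives. The block ended no call. The filter on dim probe sets kept 29 of the 43 members.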
